A study of Mus musculus with 2 samples.

Results

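The genes described here are 54 mouse genes of the transforming growth factor-β (TGF-β) superfamily: the ligands, the proteins that store and release them, their receptors, the Smad proteins that carry the signal, secreted antagonists and a few direct target genes. They were taken by name, with earlier results of these arrays known. All 54 had a probe on the array, and 47 of them were among the 13846 named genes measured. The data are 2 arrays of left ventricular RNA, 1 of control mice and 1 of heart-specific *Bmal1* knockout (*H-Bmal1*-/-) mice. The animals were males aged 12 weeks that were killed at ZT 2, where ZT 0 is lights on, and RNA of 6 animals per genotype was pooled before labeling. Both genotypes carried a floxed *Bmal1* gene. In the *H-Bmal1*-/- mice, Cre recombinase was driven by the αMHC (*Myh6*) promoter, which is active in cardiomyocytes, so that the other cells of the ventricle keep the gene by design. The controls were littermates without Cre, although the sample labels call them wild type, and no group carried Cre alone.

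TGF-β superfamily ligands are secreted dimers that bring together a pair of type II and a pair of type I receptor kinases on the cell surface. The type I receptor then phosphorylates Smad proteins, which join Smad4 and enter the nucleus. TGF-βs and activins act mainly through Smad2 and Smad3, and bone morphogenetic proteins (BMPs) mainly through Smad1, Smad5 and Smad9. TGF-β is secreted in a latent form that latent TGF-β binding proteins tie to the extracellular matrix, and proteins such as follistatin and noggin trap activins and BMPs outside the cell. In the heart, TGF-β is best known for driving fibroblasts to become myofibroblasts and to lay down matrix, and BMP signaling for its part in the formation of valves and chambers.

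Each array gave 1 processed signal per spot. Values are log2 ratios of the *H-Bmal1*-/- pool to the control pool, after the signals were divided by the 75th percentile of their array (171 for the control and 190 for the knockout pool). A raw signal that was equal on both arrays therefore corresponds to a log2 ratio of about -0.15. The error after ± is the spot error. It comes from the error that the scanner software models for each spot, combined over the spots and probes of a gene as if independent. It therefore shrinks with their number, and it holds no difference between animals. With 1 array per genotype there was no replicate and no test was possible, so a gene is called higher or lower only where it differed by at least 1.5-fold. For a gene well above background on 1 array only, the call used a bound, in which the bright signal was set against the faintest one that passed on the other array, or against the gene's own signal there if that was higher. On the control array 49.4% of the noncontrol spots were well above background, and none were saturated on either array. *Bmal1* itself, listed as *Arntl*, had a signal of 513 in the control and 328 in the knockout pool, a log2 ratio of -0.80 ± 0.20 from 1 probe. Whether that probe lies in the deleted exon was not tested. In whole-ventricle RNA, fewer cells of a type and less RNA per cell cannot be told apart.

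Secreted proteins of the superfamily made up nearly all of the genes that differed, whereas all receptors but *Bambi* and all Smads, *Id* genes and co-repressors that were measured lay within 1.5-fold. The higher members were 7 in number: the ligand genes *Tgfb2*, *Tgfb3*, *Inhba* and *Gdf6*, the binding protein gene *Ltbp2*, and the follistatin-like genes *Fstl1* and *Fstl3*. The 2 lower members were *Bambi*, a decoy receptor, and *Fst*, which encodes follistatin. The 7 higher members were 14.9% of the 47 measured, beside 6.15% of all measured genes, and the 2 lower members were 4.26%, beside 5.85%. In either direction the share was 19.1%, beside 12.0% of all measured genes. The members did not lean to one side as a set, since 22 of 47 (46.8%) had a ratio above 0, beside 48.4% of all measured genes, and their median log2 ratio was -0.01, the same as that of all genes. The median size of the ratio without its sign was 0.23 for the members and 0.19 for all genes. Among members, the called ratio nearest to the limit was that of *Tgfb3*, at 0.78 on the log2 scale, and the nearest one not called was that of *Ltbp3*, at 0.53.

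**Figure D1:**
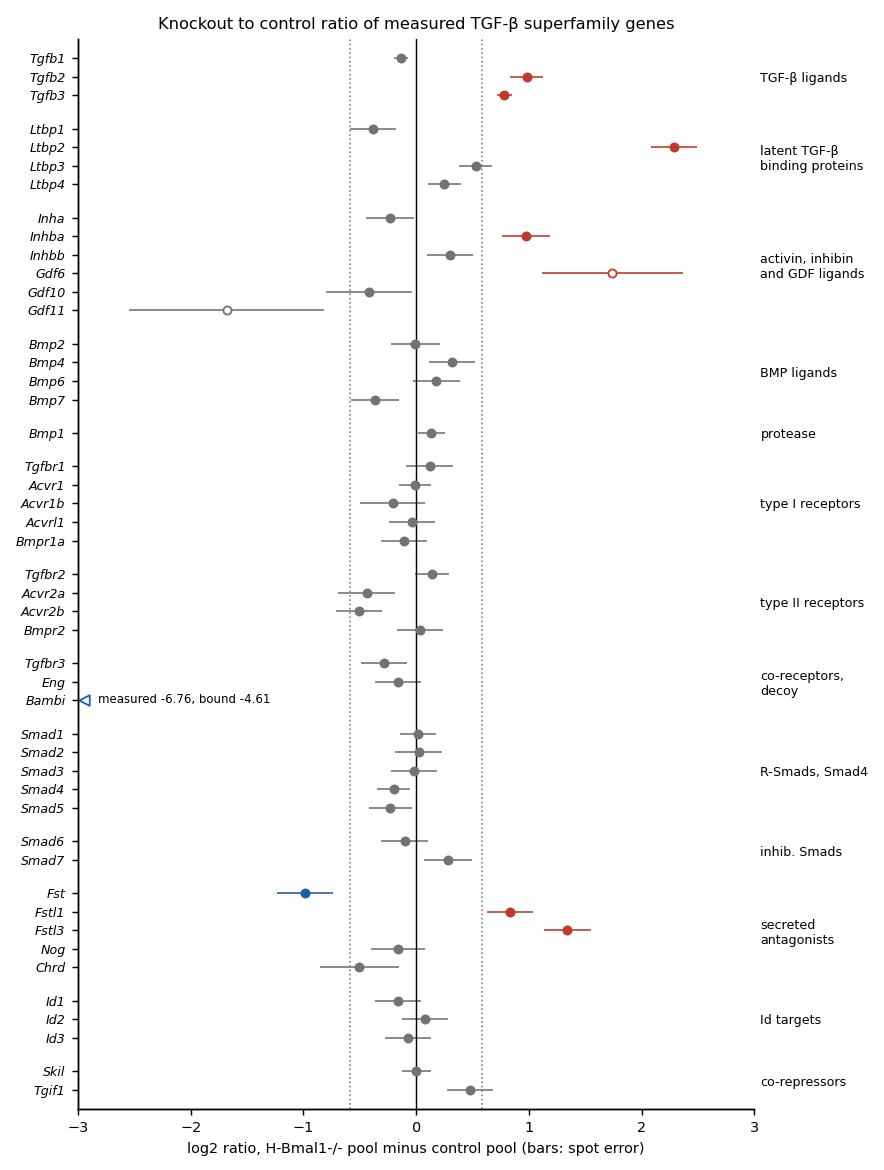
Log2 ratio of the *H-Bmal1*-/- pool to the control pool (horizontal axis) for each of the 47 measured superfamily genes, grouped by role, with the spot error as bars, which are no measure of differences between animals. Dotted lines mark 1.5-fold, red points are genes at least 1.5-fold higher, blue at least 1.5-fold lower and gray the others, and open symbols are genes well above background on 1 array only. The red points lie among the ligands, binding proteins and antagonists, and *Bambi* (triangle, measured -6.76) lies beyond the left edge.

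The upstream sequences of the differing genes are shown first, since BMAL1 with its partner CLOCK binds the E-box CACGTG, REV-ERB and ROR receptors bind sites with AGGTCA, and Smad3 and Smad4 bind CAGAC. Of the 7 called members well above background on both arrays, 5 had an entry in the RefSeq promoter table of GRCm38.p6, while *Tgfb3* and *Fst* did not. Each line gives the 250 bases before the 1 start that the table lists, 5′ to 3′ on the gene's strand, with copies of these motifs on either strand in capitals. They lie at chr1:186705990-186706239 (minus strand), chr12:84876492-84876741 (minus strand), chr13:16011601-16011850 (plus strand), chr16:37776805-37777054 (plus strand) and chr10:79777024-79777273 (plus strand).

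Tgfb2: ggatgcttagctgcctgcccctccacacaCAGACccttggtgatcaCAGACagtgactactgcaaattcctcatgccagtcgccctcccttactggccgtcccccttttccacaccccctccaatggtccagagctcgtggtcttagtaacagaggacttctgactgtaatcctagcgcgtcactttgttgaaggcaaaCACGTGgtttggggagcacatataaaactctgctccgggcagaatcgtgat

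Ltbp2: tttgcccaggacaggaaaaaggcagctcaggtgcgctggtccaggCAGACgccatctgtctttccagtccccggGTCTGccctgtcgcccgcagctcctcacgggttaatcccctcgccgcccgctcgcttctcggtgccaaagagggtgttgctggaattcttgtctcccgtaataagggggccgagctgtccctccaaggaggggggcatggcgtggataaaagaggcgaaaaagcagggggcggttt

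Inhba: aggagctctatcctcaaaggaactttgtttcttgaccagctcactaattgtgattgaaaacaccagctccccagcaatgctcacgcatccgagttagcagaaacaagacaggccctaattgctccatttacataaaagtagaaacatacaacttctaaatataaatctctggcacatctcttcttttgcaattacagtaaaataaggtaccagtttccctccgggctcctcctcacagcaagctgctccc

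Fstl1: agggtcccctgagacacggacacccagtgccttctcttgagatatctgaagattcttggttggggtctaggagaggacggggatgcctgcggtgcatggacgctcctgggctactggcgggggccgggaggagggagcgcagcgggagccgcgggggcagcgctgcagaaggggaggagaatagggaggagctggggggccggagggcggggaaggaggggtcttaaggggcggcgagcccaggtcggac

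Fstl3: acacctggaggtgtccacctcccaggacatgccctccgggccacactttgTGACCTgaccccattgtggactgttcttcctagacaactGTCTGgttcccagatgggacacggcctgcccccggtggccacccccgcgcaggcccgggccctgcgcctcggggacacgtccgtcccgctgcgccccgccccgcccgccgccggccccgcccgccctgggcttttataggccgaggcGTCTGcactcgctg

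The *Tgfb2* sequence held 1 E-box, which began 51 bases upstream of the start, and 2 copies of CAGAC, which began 221 and 204 bases upstream. The *Fstl3* sequence held 1 AGGTCA on the opposite strand (200 bases upstream) and 2 copies of CAGAC on that strand (161 and 14 bases upstream). The *Ltbp2* sequence held CAGAC 205 bases upstream and its reverse complement 176 bases upstream, and another copy lay after the start, outside the bases shown. The *Inhba* and *Fstl1* sequences held none of these letters, nor did any of the 5 hold GGCGCC, the core of a BMP-responsive element. These motifs were searched in windows of 300 bases, from 250 before to 50 after a start, on both strands. The E-box was in 7.15% of the 32851 promoters in the table and in 4 of the 50 promoters listed for 38 members, those of *Tgfb2*, *Acvr1b*, *Bmp4* and *Bmp6*. AGGTCA was in 16.3% of all promoters and in 5 of the 50, and CAGAC was in 49.6% of all promoters and in 25 of the 50. GGCGCC was in 11.9% of all promoters and in 13 of the 50 member promoters (26.0%), 11 genes in all, among them *Bmpr1a*, *Bmpr2* and *Id2*. No comparison at matched base composition was made. The G and C share of the 300-base windows was 47.7% for *Inhba* and 70.7% for *Fstl3*, beside a median of 52.7% over all promoters. A match of letters describes the sequence alone and shows no binding.

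Of the 3 TGF-β ligand genes, 2 were higher in the *H-Bmal1*-/- pool and the remaining one was not. *Tgfb2*, an isoform prominent in heart development, had a mean signal of 188 in the control and 465 in the knockout pool and was 1.97-fold higher (log2 ratio 0.98 ± 0.15). Both of its probes were brighter in the knockout pool, from 83.2 to 150 (0.70) and from 294 to 780 (1.26). *Tgfb3*, the isoform best known from palate formation, went from 1019 to 1946 and was 1.72-fold higher (0.78 ± 0.06). Its probe was printed in 10 spots per array, and the ratio ranged from 0.71 to 0.85 over them, with an SD between spots of 0.05. *Tgfb1*, the isoform most studied in fibrosis, had a signal of 318 in the control and 321 in the knockout pool, a log2 ratio of -0.14 ± 0.06. Its 10 spots ranged from -0.26 to -0.04, so that every spot was on the side of 0 opposite to *Tgfb3*. This difference was within the offset between the arrays, since the log2 ratio of *Tgfb1* was 0.02 without scaling. Over the 247 probes printed in at least 8 spots, this SD had a median of 0.07.

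The latent TGF-β binding proteins (LTBPs) are fibrillin-like matrix proteins. *Ltbp2*, whose product binds fibrillin and, unlike its relatives, does not hold latent TGF-β, had the highest ratio among all members. Its signal was 184 in the control and 999 in the knockout pool, 4.89-fold higher (2.29 ± 0.20), which was the 126th highest ratio of all measured genes. *Ltbp3*, which binds latent TGF-β during its secretion, went from 956 to 1539 (0.53 ± 0.14), with its probes at 0.47 and 0.59. *Ltbp4* had a log2 ratio of 0.25 and *Ltbp1*, which anchors latent TGF-β to the matrix, of -0.38. The group thus held 3 genes above 0 and 1 below, with 1 of the 4 called.

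**Figure D2:**
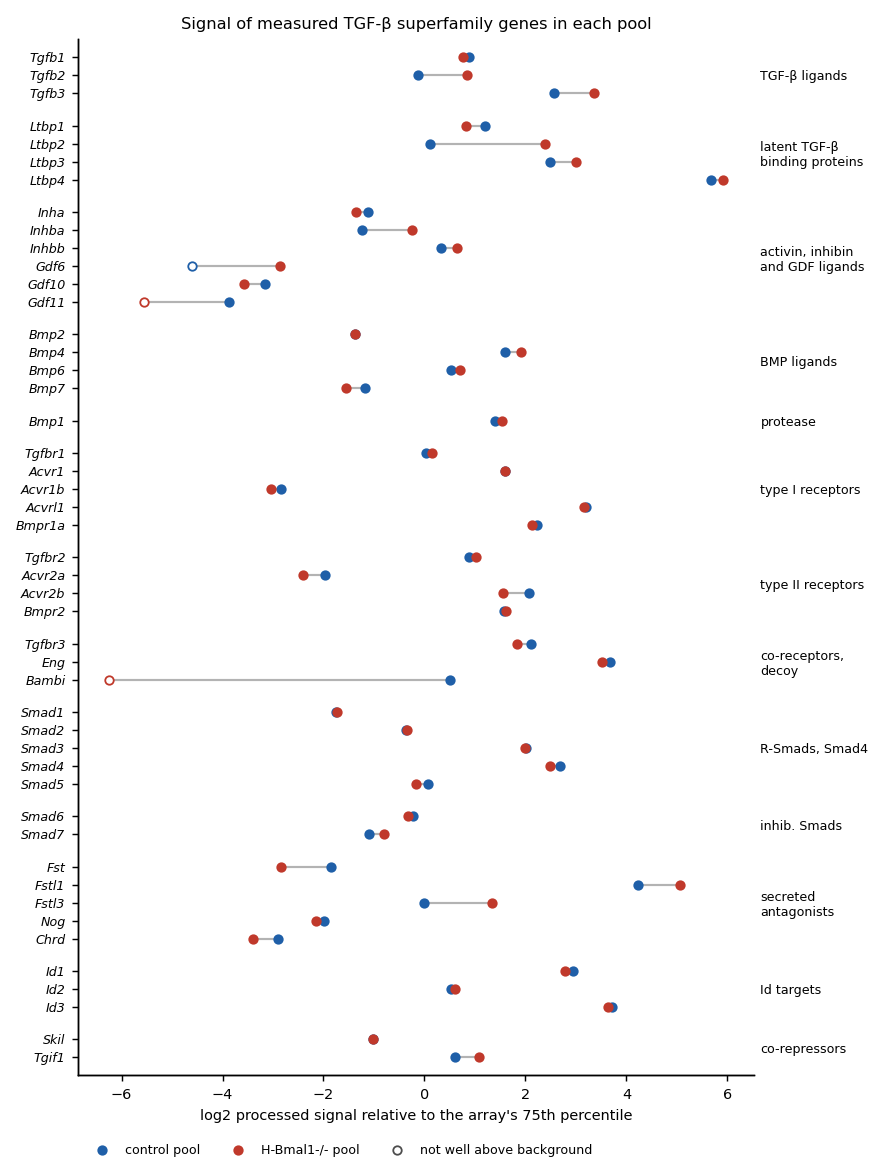
Log2 processed signal relative to the 75th percentile of the array (horizontal axis) for each measured superfamily gene, blue for the control and red for the *H-Bmal1*-/- pool, joined by a gray line. Open circles are signals not well above background. *Ltbp2*, *Fstl3*, *Tgfb2* and *Tgfb3* show red points well to the right of blue ones, *Bambi* an open red circle far to the left, and most receptors and Smads overlapping points. The position of one gene cannot be compared with that of another, since each probe has its own brightness.

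Among the activin, inhibin and growth differentiation factor (GDF) genes, 6 of 7 were measured and 2 were higher. *Inhba*, which encodes the βA subunit of activin A, had a signal of 72.9 in the control and 159 in the knockout pool, 1.97-fold higher (0.97 ± 0.21). *Inhbb*, the βB subunit, had a log2 ratio of 0.30 and *Inha*, the α subunit that turns activins into inhibins, of -0.23. *Gdf6*, a ligand of the BMP branch known from joint and skull development, had a control signal of 7.03, not well above background, and a knockout signal of 26.1. It was at least 2.13-fold higher, with a measured log2 ratio of 1.74 ± 0.63. Both signals were low, and the knockout pool was the brighter one. *Gdf11*, a close relative of myostatin, was well above background in the control pool only (11.7 and 4.06), and its bound was 1.18-fold lower, so it was not called. *Gdf10*, also known as BMP3B, had a log2 ratio of -0.42 ± 0.38.

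None of the 4 BMP ligand genes measured differed by 1.5-fold, beside 12.0% of all measured genes that did. *Bmp4*, active in heart and vessel formation, had a log2 ratio of 0.32, *Bmp6*, an endothelial regulator of iron balance, of 0.18 and *Bmp2*, a signal for valve formation, of -0.01. *Bmp7*, studied as an antifibrotic ligand, had a log2 ratio of -0.37. *Bmp1*, which despite its name encodes a protease that trims procollagen and chordin, had a log2 ratio of 0.13, with its 3 probes from -0.14 to 0.33.

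The receptor genes for these ligands were measured in 12 of 13 cases, and only *Bambi* differed by 1.5-fold, beside 12.0% of all measured genes. Of the 12, 9 had a ratio below 0 and 3 above, beside 51.6% of all genes below 0. Without scaling, 1 of 5 type I and 2 of 4 type II receptor genes were below 0. All 3 co-receptor and decoy receptor genes were also below 0 then, beside 30.2% of all genes. Among type I receptors, *Tgfbr1*, the receptor kinase for TGF-β, had a log2 ratio of 0.12, *Acvrl1*, the endothelial receptor for BMP9, of -0.03, and *Bmpr1a*, *Acvr1* and *Acvr1b*, which serve BMPs and activins, of -0.11, -0.01 and -0.21. Among type II receptors, *Tgfbr2*, the primary receptor for TGF-β, had 0.14 and *Bmpr2*, for BMPs, 0.04. The activin receptor genes were the lowest of the type II group. *Acvr2b* went from 718 to 561 (-0.51 ± 0.20) and *Acvr2a* had a log2 ratio of -0.44 ± 0.26. Both genes lay within 1.5-fold. The probes of *Acvr2a* were at -0.70 and -0.18, and the lower one was not well above background on the knockout array. With that probe left out, *Acvr2a* was at -0.18 and the median of the type II group moved from -0.20 to -0.07. Of the co-receptors, *Tgfbr3*, which encodes betaglycan, had a log2 ratio of -0.29 and *Eng*, which encodes the endothelial protein endoglin, of -0.16.

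*Bambi*, which encodes a transmembrane pseudoreceptor without a kinase domain that dampens TGF-β and BMP signaling, was the 1 receptor gene called. Its processed signal was 244 in the control and 2.50 in the knockout pool, where the spot was not well above background. The gene was at least 24.5-fold lower in the *H-Bmal1*-/- pool, with a measured log2 ratio of -6.76 ± 1.45. The unprocessed median pixel of the spot was 211 against a local background of 25 on the control array, and 24 against 29 on the knockout array. Since the knockout signal is at the background, the measured ratio has no firm size, and it was -2.23 under normexp. This value rests on 1 probe and 1 spot per array, and neither spot carried an outlier flag.

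Of the 13 genes that carry the signal inside the cell, 12 were measured, and 0 of the 12 differed by 1.5-fold. Over all measured genes 12.0% differed by that much, and a count of 0 among 12 genes is near that share. *Smad2* and *Smad3*, for the TGF-β and activin branch, had log2 ratios of 0.02 and -0.01. For the BMP branch, *Smad1* had 0.02, with its probes at -0.27 and 0.30, and *Smad5* had -0.23. *Smad4*, the common partner, had -0.20. The genes of the inhibitory Smads, which feed back on the receptors, had -0.10 (*Smad6*) and 0.28 (*Smad7*). The *Id* genes, direct targets of BMP signaling that encode inhibitors of helix-loop-helix factors, had log2 ratios of -0.16 (*Id1*), 0.08 (*Id2*) and -0.08 (*Id3*). Of the Smad co-repressor genes, *Skil*, which encodes SnoN, had a ratio of 0.00, with its probes at -0.21 and 0.21. *Tgif1* went from 261 to 404 and had the highest ratio of the 12 (0.48 ± 0.20).

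Among the antagonists, the follistatin family was split, with 2 members higher and 1 lower. *Fstl3*, whose product binds and neutralizes activins and myostatin, had a signal of 170 in the control and 479 in the knockout pool, 2.53-fold higher (1.34 ± 0.21). *Fstl1*, which encodes a secreted glycoprotein of cardiac stromal cells, went from 3208 to 6337, 1.78-fold higher (0.83 ± 0.20). *Fst*, the follistatin gene itself, moved the other way, from 47.5 to 26.6, 1.98-fold lower (-0.99 ± 0.25). Of the BMP antagonists, *Chrd*, which encodes chordin, had a log2 ratio of -0.50 ± 0.35 and *Nog*, which encodes noggin, of -0.16 ± 0.24.

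Taking the members by compartment, the 23 measured genes for secreted proteins (of 28) had a median log2 ratio of 0.18, and 7 were higher, 1 was lower and 13 were above 0. The 12 measured receptor and co-receptor genes held 0 higher and 1 lower, with a median of -0.13. The 12 measured Smad, *Id* and co-repressor genes held 0 of either kind, with a median of -0.01 and a range from -0.23 to 0.48. For all measured genes the corresponding shares were 6.15% higher and 5.85% lower, with a median of -0.01. Without scaling between the arrays every ratio was higher by 0.15, so that 30 of the 47 members, in place of 22, lay above 0. Of all 13846 measured genes, 9664 then lay above 0, in place of 6702. Medians such as those of the type I receptors (-0.03), the *Id* genes (-0.08) and the Smads other than the inhibitory ones (-0.01) turned to 0.12, 0.08 and 0.14. The groups were not tested against each other.

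**Figure D3:**
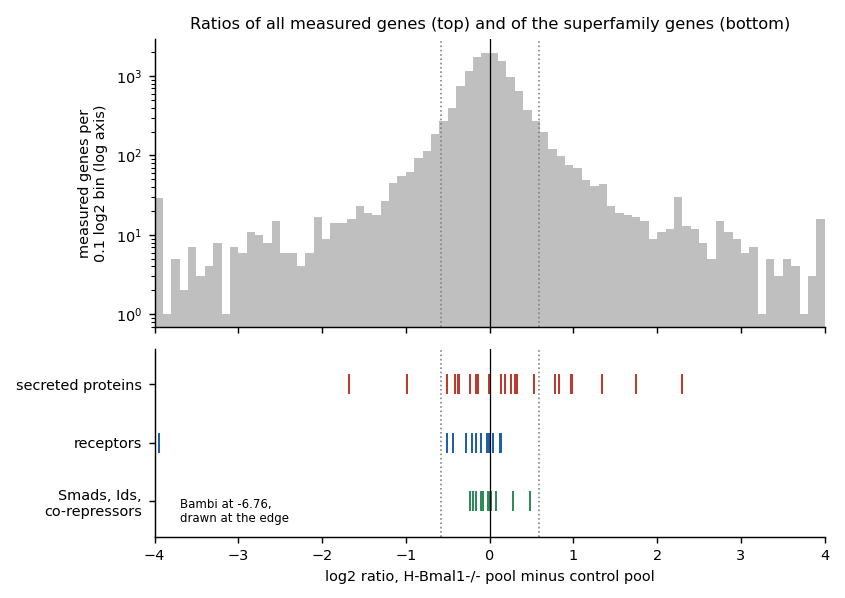
Number of all 13846 measured genes per 0.1 of the log2 ratio of the *H-Bmal1*-/- pool to the control pool (top, log axis, genes beyond 4 in either direction counted in the outermost bins), and the 47 measured superfamily genes in 3 groups (bottom, 1 tick per gene). Dotted lines mark 1.5-fold. The ticks of the secreted proteins reach from -1.68 to 2.29, those of the receptors, except *Bambi*, from -0.51 to 0.14, and those of the Smads, Ids and co-repressors from -0.23 to 0.48.

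The spot error, a modeled value with a median of 0.20 over the measured members, limits what can be read from the smaller values. Of the 47 measured members, 19 had a ratio smaller than 1 spot error and 34 smaller than 2 spot errors. Apart from called genes, the ratio was over 2 spot errors for *Tgfb1*, *Ltbp3*, *Acvr2b* and *Tgif1*. The small error of *Tgfb1* (0.06) came from the average over 10 spots. For 36 members the value came from 1 probe. Another 11 had several measured probes, and for 4 of these the probes fell on opposite sides of 0: *Bmp1*, *Acvr1* (-0.07 and 0.05), *Smad1* and *Skil*.

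The other 7 members were not well above background on either array, and no ratio is given for them. They were *Mstn*, which encodes myostatin (processed signals of 3.13 and 3.06 in the control and knockout pool), *Bmp10* (2.71 and 2.70), a ligand of atrial and embryonic trabecular myocardium, and *Bmp5* (9.70 and 6.95). The others were *Grem1*, which encodes the BMP antagonist gremlin (2.51 and 2.50), *Smad9* (11.4 and 4.26), *Chrdl1*, a chordin-like antagonist, and *Bmpr1b*, a type I receptor.

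A further 94 genes of the pathway were listed by name, also with earlier results known, and 71 of them were measured. Their median log2 ratio was 0.04, and 12 were higher and 7 lower. Under normexp, a background correction that compresses low signals, 11 were higher and 2 lower. Where both arrays had to be well above background, 11 were higher and 3 lower. Of all measured genes, 6.15% were higher, 5.85% lower and 48.4% had a ratio above 0. Their shares higher and lower were 2.67% and 1.79% under normexp, and 4.74% and 4.27% under the filter on both arrays. Genes that TGF-β is known to induce stood mostly on one side: 14 of 15 had a ratio above 0, 7 of 15 were higher, 0 were lower, and the median was 0.46. The highest were *Ccn2*, a matricellular growth factor (from 2061 to 16317, 2.83), *Timp1*, an inhibitor of matrix proteases (from 141 to 855, 2.45), and *Postn*, which encodes the myofibroblast protein periostin (from 292 to 1184, 1.87). The fibrillar collagen genes *Col1a1*, *Col1a2* and *Col3a1* had log2 ratios of 0.90, 0.70 and 0.64. Others of this list were close to 0: *Acta2*, a smooth muscle actin gene (from 6076 to 7036, 0.06 ± 0.06), *Klf10* (0.13) and *Snai2* (0.14). *Junb*, an early-response transcription factor gene, was the 1 gene of this list below 0 (-0.36). Genes outside the membership that are known to respond to BMPs were measured in 6 of 8 cases, with 2 above 0, 0 higher and 2 lower. *Hey2*, which encodes a ventricular transcriptional repressor, was at least 1.94-fold lower (19.3 and 9.66, the latter not well above background), and had a log2 ratio of -0.40 under normexp, within 1.5-fold. *Msx2*, a homeobox gene, had a log2 ratio of -0.59 ± 0.26, which came within 1.5-fold in 5 of the 10 other ways of processing tried (up to -0.32). *Id4*, seen above background in the knockout pool alone, was at least 1.45-fold higher and not called. The lists of TGF-β and BMP responses were not tested against each other.

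Among genes whose products release, process or anchor latent TGF-β, 3 of 8 measured were higher, beside 6.15% of all genes. They were *Thbs1*, which encodes thrombospondin-1 (from 58.7 to 240, 1.88), *Fbn1*, which encodes the fibrillin that anchors LTBPs (0.73), and *Mmp2*, which encodes a gelatinase (0.63). Among the other ligands, 9 of 17 were measured, with 1 higher and 1 lower. *Gdf15*, a distant superfamily member induced by cell stress, went from 101 to 1148 and was 10.2-fold higher (3.35 ± 0.21). *Gdf1*, which shares a transcript with *Cers1*, had a log2 ratio of -1.07 ± 0.23. Of the other secreted antagonists and modulators, 8 of 17 were measured and 1 was lower. This was *Wfikkn2*, which encodes an antagonist of myostatin and GDF11 (-0.87 ± 0.30). Its probes were at -1.70, -0.67 and -0.24, and the lowest was not well above background on the knockout array. Of 19 measured cytoplasmic and nuclear regulators 15 had a ratio below 0, beside 51.6% of all genes, and 3 were lower. Without scaling 7 of the 19 were below 0, beside 30.2% of all genes. *Tgfbrap1*, which encodes a protein associated with the TGF-β receptor, went from 173 to 52.2 (-1.88 ± 0.22). *Tgif2*, a co-repressor gene, was well above background on 1 of 3 probes and only in the control pool (53.8 and 2.69), at least 5.40-fold lower. Under normexp the calls of *Wfikkn2* (-0.35) and *Tgif2* (measured at -0.60, with its bound within 1.5-fold) were lost. The call of *Wfikkn2* was also lost under the filter on both arrays. With no filter on dim probes, the calls of *Gdf1* (-0.42) and *Tgif2* were lost. For a pair of these genes the probes disagreed, so that no direction can be given. *Usp15*, which encodes a deubiquitinase of the TGF-β receptor, had a bright probe at 0.19 and a dim one at -2.87 that was not well above background on the knockout array. *Tdgf1*, which encodes the Nodal co-receptor Cripto, had a probe at -0.24 and another at 3.92 that was not well above background on the control array. Both genes are included in the counts by the mean of their probes.

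**Figure D4:**
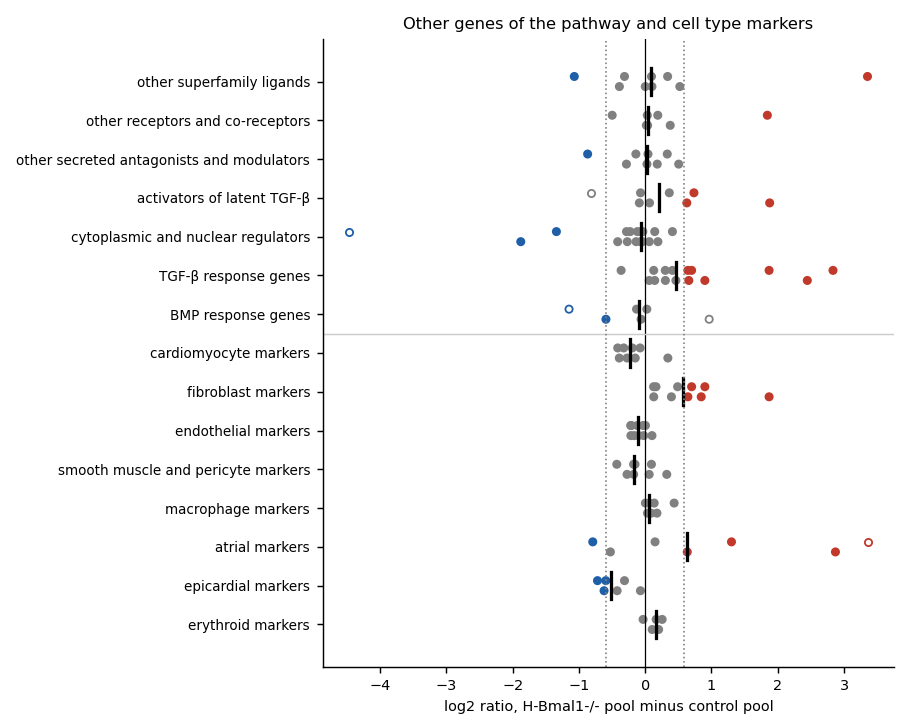
Log2 ratio of the *H-Bmal1*-/- pool to the control pool (horizontal axis) for the other genes of the pathway (above the gray line) and for markers of cell types (below it), 1 point per measured gene, with the list median as a black bar. Colors, open symbols and dotted lines are as in the plot of ratios by role. The TGF-β response genes (median 0.46), fibroblast markers (0.57) and atrial markers (0.63) lie mostly to the right of 0 and the epicardial markers (-0.51) to the left.

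Markers of the cell types in the ventricle moved beside these genes. All 10 fibroblast markers had a ratio above 0, 5 of 10 were higher and the median was 0.57. Their summed signal relative to the 75th percentile went from 303 to 451. Of all measured genes, 6.15% were higher, 5.85% lower and 48.4% had a ratio above 0. *Postn*, *Col1a1*, *Col1a2* and *Col3a1* are in both this list and the list of TGF-β responses. They were higher, and of the fibroblast markers not shared only *Lum* was (0.85). Among the others, *Pdgfra*, a receptor gene that defines the cell type, had a log2 ratio of 0.40 and *Tcf21*, a fibroblast transcription factor gene, 0.16. Cardiomyocyte markers had a median of -0.23, with 7 of 8 below 0 and a summed signal of 8348 and 7503. Endothelial markers had a median of -0.11 (8 of 10 below 0, summed signal 214 and 207) and smooth muscle and pericyte markers -0.16 (5 of 8 below 0, 85.1 and 81.6). Without scaling, the medians of the cardiomyocyte, endothelial, and smooth muscle and pericyte markers were -0.08, 0.04 and -0.01. Then 5 of 8, 4 of 10 and 5 of 8 of these markers were below 0, beside 30.2% of all genes. Macrophage markers, with 9 of 10 measured, had a median of 0.06 (9 above 0, 52.3 and 54.9), and erythroid markers had 0.17 (4 of 5 above 0, 2059 and 2264). The 6 epicardial markers had a median of -0.51, with 3 lower, and summed signals of 8.89 and 6.14. Without scaling and under normexp 0 of them were lower, with medians of -0.36 and -0.32. Under cyclic loess and under spike-in scaling, 2 were lower. Of 7 atrial markers, 4 were higher and 1 was lower (2 and 0 under normexp), with summed signals of 119 and 806. Almost all of that sum was *Nppa*, and the other 6 markers together had 9.42 and 8.24. The higher ones included *Nppa*, which failing ventricles also express (2.87), and *Sln*, which encodes sarcolipin and passed the background limit in the knockout pool alone (at least 2.75-fold higher). Every marker was well above background in at least 1 pool, except the macrophage gene *Cd68*, which was not measured. The part of fibroblast, atrial, epicardial and other cell content in the ratios of the superfamily genes was not tested.

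Under 10 other ways of processing, 7 of the 9 called members kept their call wherever they were measured, and none of the 9 changed sign. The value table of the authors, which is 1 of the 10, holds the same intensities times a factor and could only repeat the result. The median of probes above background, no scaling and spike-in scaling shift every ratio by the same amount. The other filters and the brightest probe could not change *Tgfb3*, *Ltbp2*, *Inhba*, *Fstl1*, *Fstl3* and *Fst*, which had 1 probe that passed on both arrays. The count of kept calls is therefore no count of independent checks. The calls of *Gdf6* and *Fst* were lost when the background was corrected by normexp, where their log2 ratios were 0.31 and -0.48. *Bambi* was lower under that correction too, at -2.23, and *Ltbp2* (2.03), *Fstl3* (1.16), *Tgfb2* (0.81) and *Inhba* (0.61) remained above 1.5-fold. Under a filter that kept only probes well above background on both arrays, *Bambi* and *Gdf6* gave no value. That filter left 44 members, of which 6 were higher and 1 was lower, beside 4.74% and 4.27% of all genes under the same filter. Without scaling between the arrays, 9 members were higher and 2 lower, with *Ltbp3* and *Tgif1* added, beside 9.66% and 3.83% of all genes, and the median of all genes moved from -0.01 to 0.14.

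**Figure D5:**
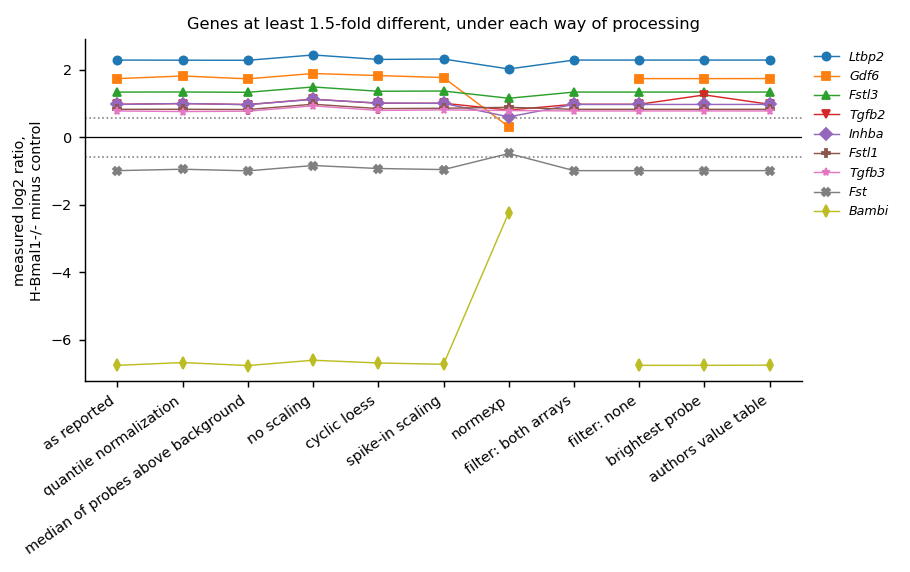
Measured log2 ratio of the *H-Bmal1*-/- pool to the control pool (vertical axis) for the 9 called superfamily genes under the processing reported and 10 alternatives (horizontal axis), with dotted lines at 1.5-fold. A gap means that the gene was not measured. *Ltbp2* stays between 2.03 and 2.44, *Gdf6* and *Fst* come within the dotted lines under normexp, and *Bambi* is at -2.23 there.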

How the data were processed

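The authors pooled left ventricular RNA of 6 animals per genotype, labeled it with Cy3 and hybridized each pool to 1 Agilent SurePrint G3 Mouse array. The deposited intensities are the processed signal of Agilent Feature Extraction, background-subtracted, linear and without scaling between arrays. The notes of the submitters give version 10.5.1.1 and the file header 10.10.1.1. The arrays shared 1 slide and 1 scan. The deposited value table holds the same intensities times 1 factor per array (log2 2.45 for control, 2.31 for knockout), with column medians of 67.2 and 64.0 and no centering. Where the factor comes from is not given in the sources used, and the table was used as an alternative only.

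Control spots and 269 spots with an outlier flag were left out of 59305 noncontrol spots. Log2 signals were set relative to the 75th percentile of the array and spots of a probe were averaged. A probe counted as well above background where most of its spots did. Of 55676 probes, 26759 were matched by accession to a symbol in a RefSeq table of GRCm38.p6, used for names only. The probes of a gene that passed on 1 or both arrays were averaged. Genes were counted at 1.5-fold (0.58 on the log2 scale), and no test was made with 1 array per genotype. The number of arrays limits the precision. Members and lists were chosen with earlier results of these data known.

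Every member is accounted for, and members at least 1.5-fold different are given with both signals, all probes and the bound where dim. Other pathway genes are named when at least 1.5-fold different, except 1 that is not reported here. *Junb*, *Acta2*, *Klf10*, *Snai2*, *Id4*, *Pdgfra*, *Tcf21* and *Lum* were named outside this rule, after their values were seen. The alternatives were quantile normalization, the median of probes above background, no scaling, cyclic loess, spike-in scaling, normexp (offset 50, on the median signal and median local background), 2 other filters, the brightest probe, the value table, and thresholds of 0.32 on the log2 scale and 2-fold. The main scaling, the averaging over probes and the 1.5-fold calls were tested on simulated arrays. The bound for genes seen on 1 array only, the spot error, the alternatives and the motif search were not tested in this way. The software was limma 3.58.1 in R 4.3.3, with pandas 2.3.3, numpy 2.4.6 and matplotlib 3.10.9 in Python 3.11.15.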

Additional observations from a re-analysis of the deposited data

How the results depend on the processing

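The median log2 ratio of the members was 0.14 without scaling, as was that of all genes, and -0.10 with no filter on dim probes, where the median of all genes was also -0.10. The number of members called lower was 1 under normexp, 1 under the filter on both arrays, 8 at a smaller threshold of 0.32 on the log2 scale and 1 at 2-fold, beside 15.0% and 2.06% of all genes. The number called higher was 9 at the smaller threshold, beside 14.2% of all genes, 3 at 2-fold, beside 2.41%, and 6 to 9 under the 10 other ways of processing. *Tdgf1* reversed to -0.24 and *Usp15* to 0.19 under the filter on both arrays and with the brightest probe, since each leaves out the dim probe. Of the 47 measured members, 9 changed sign in at least 1 of the alternatives. Under normexp, 2.67% of all genes were higher and 1.79% lower. With 1 pool per genotype on 1 slide, differences between animals and differences between labelings cannot be told apart from genotype, and the low signals of genes such as *Bambi*, *Gdf6*, *Gdf11* and *Fst* limit their ratios. No paired analysis was possible because each genotype has 1 array.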
